A study of Homo sapiens with 2 samples.

Results

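The Notch receptors NOTCH1 to NOTCH4, the ligands DLL1, DLL3, DLL4, JAG1 and JAG2, and the modifier LFNG were followed in RNA-Seq of differentiating human embryonic stem cells. The receptors and ligands were taken by family name, with LFNG alone of the Fringe enzymes, from the 17397 genes listed with an expression value. All 10 genes had a value. The choice was made with earlier results of these data known. The data comprised 1 library of wild-type (WT) H1 cells and 1 library of MEIS2-/- H1 cells, both collected at day 4 of hematopoietic differentiation. H1 is an established human embryonic stem cell line. MEIS2 encodes a homeodomain transcription factor that was targeted with CRISPR/Cas9 from a lentiviral vector, followed by puromycin selection and the picking of single-cell colonies. Both genotypes were cultured alike, first for 2 days with BMP4 (40 ng/ml) and activinA (50 ng/ml), which induce mesoderm, and for another 2 days with bFGF (50 ng/ml) plus VEGF (40 ng/ml). The MEIS2-/- library stands for a line grown from 1 cell, and which homozygous clone was sequenced is not given in the sources used here. No cell sort is named for either library, so the RNA came from mixed cultures, in which fewer cells of a type and less RNA per cell cannot be told apart.

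Notch is a signalling pathway between touching cells. A Delta-like or Jagged ligand on one cell binds a NOTCH receptor on its neighbour, the receptor is cut by ADAM proteases and by gamma-secretase, and its freed intracellular domain joins the DNA-binding protein RBPJ in the nucleus to switch on target genes of the HES and HEY families. Fringe enzymes such as LFNG add a sugar to the receptor and thereby tune which ligand it responds to. In the embryo the pathway is known for arterial identity, for the emergence of blood from hemogenic endothelium and for the segmentation of the paraxial mesoderm.

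The unit FPKM scales fragments to transcript length and to the number of mapped fragments of the library, so levels can be set side by side between genes of different length. Fold changes are log2 of MEIS2-/- over WT with 0.1 FPKM added to both, so that differences of genes with low values are understated. A gene was compared where it reached 1 FPKM in at least 1 library, and a difference of at least 2-fold was counted. With 1 library per genotype, no value has a replicate error and no difference was tested. Among the 13075 genes that passed, the share at least 2-fold lower in the MEIS2-/- library was 7.97% and the share at least 2-fold higher was 7.84%, with a median log2 fold change of 0.12. The median gene listed was at 4.84 FPKM in the WT and 5.18 FPKM in the MEIS2-/- library, and 832 and 614 genes were at 0. MEIS2 mRNA itself was at 10.85 FPKM in the WT library and 3.44 FPKM in the MEIS2-/- library, a log2 fold change of -1.63, although a small edit in an exon need not change the amount of mRNA.

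Of the 10 Notch genes, 8 passed the filter, and each of these 8 was above it in both libraries, with 3.38 FPKM as the lowest value. In MEIS2-/- cells, DLL3, JAG2 and NOTCH1 were lower by at least 2-fold, DLL1 was at least 2-fold higher, and NOTCH2, NOTCH3, JAG1 and LFNG differed by less than 2-fold. Thus 37.5% of the 8 were lower, beside 7.97% of all genes compared, and 12.5% were higher, beside 7.84%. Among genes that reached 5 FPKM in at least 1 library, as all 8 did, the shares were 6.41% lower and 5.94% higher. The median log2 fold change of the 8 was -0.16, between JAG1 and NOTCH2. NOTCH4 and DLL4 stayed below 1 FPKM in both libraries.

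**Figure D1:**
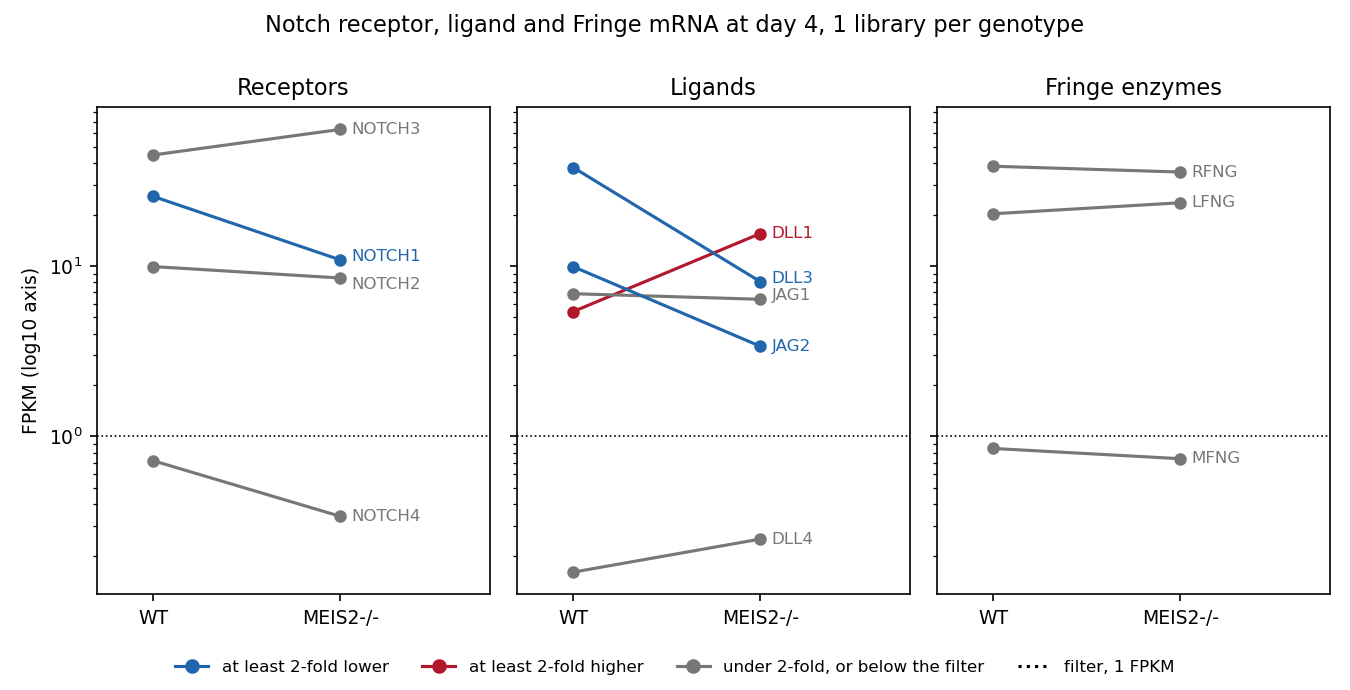
Expression of the Notch receptors, ligands and Fringe enzymes in the WT and the MEIS2-/- library, as FPKM on a log10 axis, with 1 point per gene and library and a line joining the points of a gene. DLL3 drops from 37.74 to 8.09 FPKM and crosses DLL1, which goes from 5.40 to 15.47 FPKM, while NOTCH4, DLL4 and MFNG lie below the dotted filter line at 1 FPKM in both libraries.

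Among the receptors, NOTCH1 stood apart by its lower level in MEIS2-/- cells. NOTCH1, the receptor required for the emergence of blood stem cells from embryonic endothelium, was at 25.55 FPKM in the WT library and 10.85 FPKM in the MEIS2-/- library. Its log2 fold change was -1.23, 2.34-fold lower, and 5.74% of all genes compared had a value as low or lower. NOTCH1 (NCBI Gene 4851) spans positions 136494433 to 136545786 of chromosome 9 (minus strand, GRCh38, GENCODE 29 annotation).

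NOTCH3, best known as the receptor of mural cells around vessels, was the most abundant of the 10 genes in each library. It was at 44.74 FPKM in the WT and 63.13 FPKM in the MEIS2-/- library, a log2 fold change of 0.50. NOTCH2, a broadly expressed receptor, was at 9.91 FPKM and 8.49 FPKM, a log2 fold change of -0.22. NOTCH2 has near-identical partial copies in the genome, and reads shared with them could be assigned either way. The listed copy, NOTCH2NLA, was at 1.97 FPKM in the WT and 2.36 FPKM in the MEIS2-/- library.

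NOTCH4, a receptor largely restricted to endothelium, was at 0.72 FPKM in the WT and 0.34 FPKM in the MEIS2-/- library. FPKM times the annotated transcript length in kb gives a level that is no longer per length and orders genes by their share of the library's fragments, whose total is unknown. With 6.75 kb this product was 4.86 and 2.29 for NOTCH4, against 238 and 101 for NOTCH1 with 9.31 kb. NOTCH4 shares 98 exonic bases with GPSM3 on the same strand, and fragments there could belong to either gene. The order of the receptors was the same in both libraries, with NOTCH3 first, then NOTCH1, NOTCH2 and NOTCH4. Whether neighbours in this order differ beyond the spread between cultures cannot be said from 1 library each.

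The largest difference among the 10 genes was that of DLL3. DLL3 is a divergent Delta-like ligand that does not activate Notch on neighbouring cells, stays mostly inside the cell and inhibits Notch in the cell that makes it, and it is known from the segmenting paraxial mesoderm. DLL3 was the second most abundant of the 10 genes in WT cells at 37.74 FPKM, and ranked sixth in MEIS2-/- cells at 8.09 FPKM. Its log2 fold change was -2.21, 4.62-fold lower, which placed it at rank 180 from the lowest among the 13075 genes. DLL3 (NCBI Gene 10683) spans positions 39498895 to 39508481 of chromosome 19 (plus strand, GRCh38).

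DLL1, an activating Delta-like ligand that is also expressed in paraxial mesoderm and in neural progenitors, differed in the opposite direction. It was at 5.40 FPKM in the WT library and 15.47 FPKM in the MEIS2-/- library, a log2 fold change of 1.5. This was 2.83-fold higher and placed DLL1 at rank 426 from the highest. DLL1 (NCBI Gene 28514) spans positions 170282206 to 170306565 of chromosome 6 (minus strand, GRCh38).

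JAG2 and JAG1, the Jagged ligands, did not share a pattern. JAG2 was at 9.89 FPKM in the WT and 3.38 FPKM in the MEIS2-/- library, 2.87-fold lower with a log2 fold change of -1.52. JAG1, a ligand expressed in endothelium and smooth muscle among other tissues, was at 6.87 FPKM and 6.37 FPKM, a log2 fold change of -0.11. JAG2 (NCBI Gene 3714) spans positions 105140981 to 105168824 of chromosome 14 (minus strand, GRCh38), and shares 469 exonic bases with an overlapping transcript, AL512356.1, on its own strand, and JAG1 shares 79 with the antisense transcript AL050403.2, from which an unstranded library cannot tell it.

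DLL4, the ligand of arterial and sprouting endothelium, was close to 0 in both libraries. It was at 0.16 FPKM in the WT and 0.25 FPKM in the MEIS2-/- library. With a transcript of 3.43 kb the product of FPKM and length was 0.549 and 0.858, the lowest of the 10 genes, and no fold change is read from it.

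The start of the gene was read from RefSeq for 8 of the 10 genes, in 9 windows of 300 bases that run from 250 bases before the annotated start to 50 bases after it (GRCh38.p14). DLL1 and DLL3 were the other two. The core sequence recognised by MEIS proteins, TGACAG or CTGTCA on the other strand, occurred in 2 of the 9 windows, those of JAG2 and DLL4, and in 15.8% of 35116 windows of the same length from all genes. These 2 windows are shown because they hold this core, and that of NOTCH1 because NOTCH1 was the receptor with the lower level. The JAG2 window is chr14:105168727-105169026 on the minus strand, the DLL4 window chr15:40929090-40929389 on the plus strand and the NOTCH1 window chr9:136545999-136546298 on the minus strand. Each is written in the direction of transcription, with the MEIS core in capitals.
JAG2: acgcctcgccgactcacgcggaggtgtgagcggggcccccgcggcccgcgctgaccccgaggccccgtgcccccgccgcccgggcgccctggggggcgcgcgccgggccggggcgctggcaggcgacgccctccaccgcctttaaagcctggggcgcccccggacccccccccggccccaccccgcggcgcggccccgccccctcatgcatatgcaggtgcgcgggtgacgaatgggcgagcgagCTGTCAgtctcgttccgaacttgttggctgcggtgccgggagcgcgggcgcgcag
DLL4: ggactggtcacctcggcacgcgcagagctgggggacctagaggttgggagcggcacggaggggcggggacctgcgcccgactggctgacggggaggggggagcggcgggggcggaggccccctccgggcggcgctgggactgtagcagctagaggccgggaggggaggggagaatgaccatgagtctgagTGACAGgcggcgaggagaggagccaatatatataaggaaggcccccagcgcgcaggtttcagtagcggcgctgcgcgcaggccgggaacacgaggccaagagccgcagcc
NOTCH1: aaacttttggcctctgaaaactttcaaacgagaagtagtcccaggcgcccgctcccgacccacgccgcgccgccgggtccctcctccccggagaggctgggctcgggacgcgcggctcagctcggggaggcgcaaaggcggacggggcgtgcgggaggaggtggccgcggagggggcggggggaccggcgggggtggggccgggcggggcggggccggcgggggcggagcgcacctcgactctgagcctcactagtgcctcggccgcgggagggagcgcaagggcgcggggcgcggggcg
In JAG2 the match began 5 bases before the start, and in DLL4 60 bases before it. All motifs were searched on both strands. The RBPJ core TGGGAA was found in both LFNG windows and in 24% of all windows. The E-box CAGATG was found in 1 LFNG window and in 14.7% of all windows. The GATA core AGATAA, present in 10.3% of all windows, was found in none of the 9. The same held for the ETS core CCGGAA, present in 17.2% of all windows. No matches in these windows overlapped each other. The NOTCH1 window held none of these letters. A match describes the sequence and does not show binding. GC content was 77% in the NOTCH1 window and 79.7% in the JAG2 window, against a median of 58.7% over all windows.

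LFNG, the Fringe enzyme that favours signalling by Delta-like over Jagged ligands and that oscillates in the segmenting mesoderm, differed little. It was at 20.22 FPKM in the WT and 23.45 FPKM in the MEIS2-/- library, a log2 fold change of 0.21. RFNG, the Fringe enzyme with the highest level here, was at 38.40 FPKM and 35.51 FPKM, and MFNG was at 0.85 FPKM and 0.74 FPKM. Thus neither LFNG nor RFNG differed by 2-fold, and MFNG was below the filter.

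**Figure D2:**
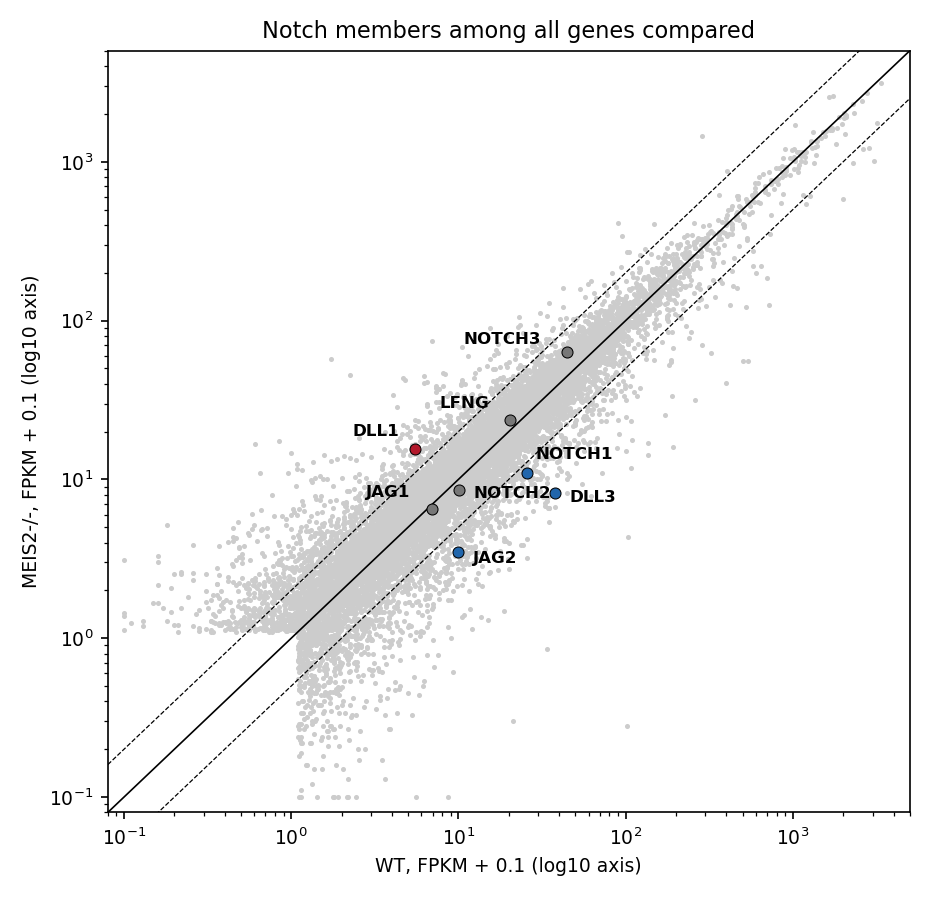
Each of the 13075 genes compared (grey) by its level in the WT library (x axis) and in the MEIS2-/- library (y axis), as FPKM + 0.1 on log10 axes, with the 8 compared Notch genes in larger points. The solid line marks equal values and the dashed lines a 2-fold difference: DLL3, JAG2 and NOTCH1 (blue) lie below the lower dashed line and DLL1 (red) above the upper one.

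Because the members differed in opposite directions, the make-up of the receptor and ligand mRNA was compared within each library, where a scaling factor cancels. The summed receptor level was 80.92 FPKM in the WT and 82.81 FPKM in the MEIS2-/- library, a log2 difference of 0.03 that became -0.08 once the libraries were rescaled by their median ratio. The NOTCH3 share was 55.3% in WT cells and 76.2% in MEIS2-/- cells, while NOTCH1 made up 31.6% and 13.1%. The ratio of NOTCH3 to NOTCH1 was thus 1.75 in WT cells and 5.82 in MEIS2-/- cells. Similar summed receptor levels therefore went with a different mixture of receptors.

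The ligands differed both in sum and in make-up. Their summed level was 60.06 FPKM in the WT and 33.56 FPKM in the MEIS2-/- library, or 55.9% of WT. DLL3 was the leading ligand mRNA in WT cells with 62.8% of the sum and held 24.1% in MEIS2-/- cells, whereas DLL1 held 8.99% in WT cells and led with 46.1% in MEIS2-/- cells. The ratio of DLL1 to DLL3 was 0.143 in WT cells and 1.91 in MEIS2-/- cells, 13.4 times higher.

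Without DLL3, which is not an activating ligand, the sum was 22.32 FPKM in the WT and 25.47 FPKM in the MEIS2-/- library, so the sum of the other ligands was not lower. Within these 4 ligands, JAG2 led in WT cells with 44.3% and held 13.3% in MEIS2-/- cells. DLL1 went from 24.2% to 60.7% of the 4, and JAG1 from 30.8% to 25%. Between the Jagged ligands, the ratio of JAG1 to JAG2 was 0.695 in WT cells and 1.88 in MEIS2-/- cells.

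The rest of the pathway was described with 53 genes that carry, cut, transmit or answer the Notch signal, of which 51 had a value and 48 were compared. Of these 48, 5 (10.4%) were at least 2-fold lower and 4 (8.33%) at least 2-fold higher, shares near those of all genes, with a median log2 fold change of -0.01. DTX1, counted among the 5, passed the filter through the WT library alone. RBPJ, through which all 4 receptors act, was at 9.81 FPKM in the WT and 12.11 FPKM in the MEIS2-/- library.

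Of the 9 genes for the proteases that mature and cut the receptors, 7 differed by less than 2-fold. The other 2 were higher (22.2%, beside 7.84% of all genes compared). PSEN2, a presenilin that forms the catalytic subunit of some gamma-secretase complexes, was higher in MEIS2-/- cells, at 5.80 and 18.61 FPKM (log2 fold change 1.67). APH1B, another subunit of that enzyme, was also higher, from 1.55 to 3.48 FPKM. In the transcription complex, 1 of 7 genes was at least 2-fold higher (14.3%, beside 7.84% of all genes compared). This was the acetyltransferase gene CREBBP, at 6.86 and 15.02 FPKM. None of the 6 RBPJ corepressor genes compared was past 2-fold, nor any of the 3 compared glycosyltransferase genes beside LFNG. The same held for the 4 genes for turnover of the intracellular domain. Of all genes compared, 7.97% were lower and 7.84% higher, so lists this short can hold none past 2-fold. The feedback gene NRARP belongs to the turnover list and is itself a Notch target. It was just inside 2-fold, at 12.08 and 6.39 FPKM, with a log2 fold change of -0.91.

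Among 12 genes for ubiquitination of ligands and uptake of receptors, the related ubiquitin ligase genes NEURL1 and NEURL1B differed in opposite directions. NEURL1 was at 2.21 FPKM in the WT and 6.60 FPKM in the MEIS2-/- library, and NEURL1B at 5.49 FPKM and 1.58 FPKM. DTX1, a Deltex gene, was at 1.20 and 0.33 FPKM. MIB1, the ubiquitin ligase needed for ligand activity in most tissues, was at 6.92 and 6.78 FPKM. Of the 4 non-canonical ligand genes, 3 were compared and 2 were at least 2-fold lower (66.7%, beside 7.97% of all genes compared). EGFL7, a secreted protein of endothelium that can bind Notch, was at 285.86 FPKM in the WT and 69.96 FPKM in the MEIS2-/- library, a log2 fold change of -2.03. DLK2, a membrane protein related to Delta, was at 2.34 and 1.11 FPKM.

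Of the 6 HES and HEY target genes 4 were compared, and 1 of these, HES4, was at least 2-fold lower (25%, beside 7.97% of all genes compared). It was at 82.55 FPKM in the WT and 34.72 FPKM in the MEIS2-/- library, with a log2 fold change of -1.25. HES1, at 63.93 and 32.86 FPKM (-0.96), HEY2, at 16.88 and 9.31 FPKM (-0.85), and HEY1, at 6.55 and 5.59 FPKM (-0.22), stayed within 2-fold. All 4 of the compared target genes thus had a log2 fold change below 0, beside 40.6% of all genes compared. HES1 and NRARP went past 2-fold after either rescaling of the libraries, at -1.07 and -1.02 with the median and -1.06 and -1.01 with the trimmed mean of log ratios (TMM).

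**Figure D3:**
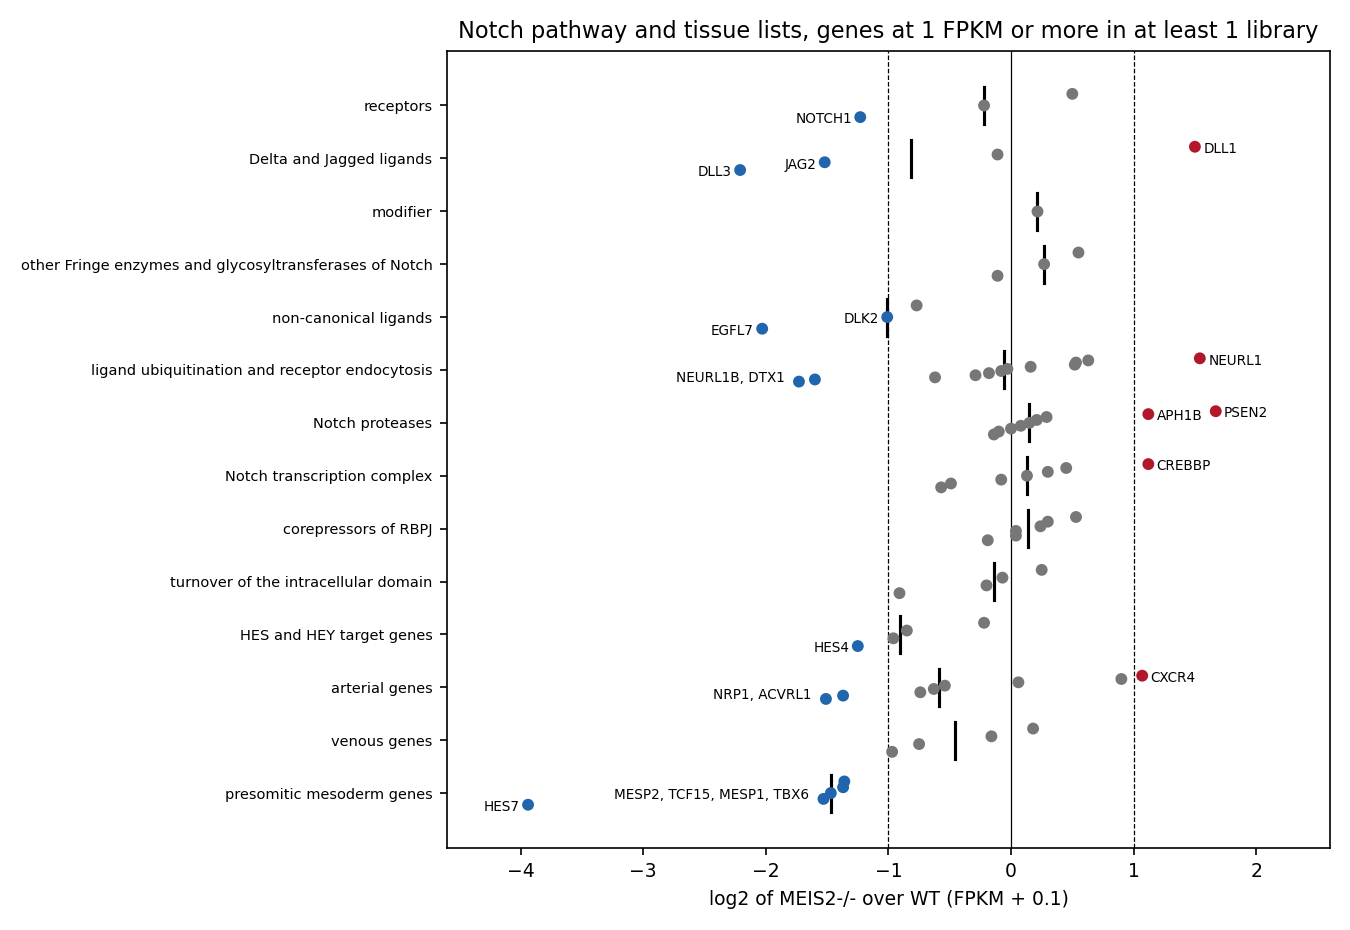
Log2 of MEIS2-/- over WT (FPKM + 0.1) for each compared gene of the Notch lists and of 3 tissue lists (rows), with 1 point per gene, a black bar at the median of each list and dashed lines at a 2-fold difference. Genes at least 2-fold lower (blue) or higher (red) are named, from HES7 at -3.94 to PSEN2 at 1.67, and most protease, transcription and corepressor genes lie between the dashed lines.

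Tissues in which Notch is known to act were described with further lists. Of 9 genes of the presomitic mesoderm, where DLL1, DLL3 and LFNG take part in segmentation, 3 reached 1 FPKM in both libraries. These 3, TBX6, MESP1 and TCF15, were at least 2-fold lower. Of all genes compared, which needed 1 FPKM in at least 1 library rather than in both, 7.97% were lower. HES7 and MESP2 passed the filter through the WT library alone and are not counted among these 3. HES7, the oscillating repressor of the segmentation clock, was at 9.24 FPKM in the WT and 0.51 FPKM in the MEIS2-/- library. TBX6, which promotes presomitic fate, was at 5.38 and 2.03 FPKM, and MESP1, also a gene of cardiac mesoderm, at 8.12 and 3.09 FPKM. TCF15, at 3.98 and 1.37 FPKM, and MESP2, at 1.92 and 0.60 FPKM, are known from early somites. MSGN1 was listed at 0 in WT cells and at 0.68 FPKM in MEIS2-/- cells. DLL3 was also lower, whereas DLL1 was higher and LFNG differed by less than 2-fold.

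The 8 arterial genes were split, with 2 at least 2-fold lower (25%, beside 7.97% of all genes compared) and 1 higher (12.5%, beside 7.84%). NRP1, a coreceptor for VEGF and semaphorins, was at 30.89 and 10.75 FPKM, and ACVRL1, a BMP receptor of endothelium, at 24.05 and 9.25 FPKM. CXCR4, the chemokine receptor for CXCL12, was at 24.13 and 50.90 FPKM, while EFNB2, the arterial ephrin, was at 14.04 and 14.61 FPKM. None of the 4 venous genes compared was past 2-fold, and NR2F2, the regulator of venous fate, was below the filter at 0.98 and 0.99 FPKM.

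Markers of several cell types also differed between the 2 libraries. Of 12 endothelium markers, 9 were compared. PECAM1 (1.53 and 0.93 FPKM) passed the filter through the WT library alone, and the other 8 reached 1 FPKM in both. All 9 had a log2 fold change below 0. At least 2-fold lower were 6 (66.7%, beside 7.97% of all genes compared), among them KDR (323.77 and 61.98 FPKM) and CDH5 (15.20 and 5.02 FPKM). EMCN (0.11 and 0.03 FPKM), ROBO4 (0.05 and 0.09 FPKM) and CLDN5 (0.28 and 0.65 FPKM) were below the filter. The 12 markers summed to 690.70 FPKM in the WT and 167.07 FPKM in the MEIS2-/- library. KDR and EGFL7, which belongs to this list too, held most of this sum, and the other 10 markers summed to 81.07 and 35.13 FPKM. The arterial gene SOX17 (141.01 and 264.03 FPKM) also belongs to the endoderm list. The 6 markers of mural cells summed to 416.29 and 281.14 FPKM, with PDGFRB at least 2-fold lower and MYH11 at 0.10 FPKM in each library, while NOTCH3 went from 44.74 to 63.13 FPKM. The 6 markers of lateral and cardiac mesoderm summed to 751.73 and 494.23 FPKM.

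Of the 6 markers of undifferentiated cells 5 were compared. POU5F1, NANOG and ZFP42 were at least 2-fold higher in the MEIS2-/- library (60% of the 5, beside 7.84% of all genes compared). The 6 markers summed to 536.93 and 1831.76 FPKM. POU5F1 alone held 285.65 and 1454.14 FPKM of this, and the other 5 markers summed to 251.28 and 377.62 FPKM. LIN28A and DPPA4 differed by less than 2-fold, and SOX2 was at 0.09 and 0.15 FPKM. Of the 6 endoderm markers, 4 reached 1 FPKM in both libraries. Of these 4, HNF4A and APOA1 were at least 2-fold higher, and FOXA2 and SOX17 were not. Of all genes compared, which needed 1 FPKM in at least 1 library rather than in both, 7.84% were higher. TTR (0.38 and 5.31 FPKM) and AFP (0.32 and 3.91 FPKM) passed the filter through the MEIS2-/- library alone. The 6 endoderm markers summed to 592.55 and 1230.58 FPKM, and to 191.17 and 351.45 FPKM without APOA1. The 8 blood markers were low, summing to 9.26 and 7.50 FPKM. The part of these markers in the levels of DLL3, DLL1, JAG2 and NOTCH1 was not tested.

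To place the 4 members past 2-fold among all genes, the 3 genes nearest to each were found by the distance between their log2(FPKM + 0.1) values over the 2 libraries. NOTCH1 lay nearest to SPIN4 (26.36 and 10.60 FPKM), JUNB and PDGFRB. JAG2 lay nearest to CADM1 (9.78 and 3.50 FPKM), GPR162 and GRIN2D. DLL1 lay nearest to CGN (5.49 and 16.17 FPKM), PRDM1 and AXIN2, and DLL3 to SOX18 (34.23 and 7.67 FPKM), HK2 and PRRT2. The distances were 0.051 to 0.091 for NOTCH1, JAG2 and DLL1 and 0.160 to 0.213 for DLL3, whose neighbours were thus farther away. Likeness over 2 libraries is a likeness of level and difference only.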

How the data were processed

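RNA-Seq libraries of WT and MEIS2-/- H1 cells (1 each) were prepared with an Illumina TruSeq kit from Trizol-extracted RNA. The authors deposited FPKM values rounded to 2 decimals for 17397 genes listed by NCBI Gene number. The submitters' processing notes name BWA, Bowtie, RSEM and hg19, with no role or version. Whether the lowest FPKM values are multiples of 1 read was checked on 444 (WT) and 358 (MEIS2-/-) genes; agreement was 0.10 and 0.18, where 1 is complete, so depth is unknown and no interval is given.

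Gene numbers were matched to RefSeq symbols for 17365 genes. Fold changes used a pseudocount of 0.1 FPKM, a filter of 1 FPKM and a threshold of 2-fold. With 1 library per genotype no test was made. The members and lists were chosen with earlier results of these data known. All 10 members are named. Pathway genes are named where they were past 2-fold or define their list (RBPJ, MFNG, RFNG, HES1, HEY1, HEY2, EFNB2, NR2F2); NRARP, MIB1, MSGN1, SOX17, NOTCH2NLA and the single markers were named after their values were seen. The 3 nearest genes follow a distance rule. Transcript lengths, positions and overlaps came from GENCODE 29 (GRCh38) and were not used to make the values. HES5 and CIR1 were not analysed here, and a list of neural markers is not reported here. The computation was tested on simulated data with planted changes. Python 3.11.15, numpy 2.4.6, pandas 2.3.3 and matplotlib 3.10.9 were used. Alternatives were other pseudocounts (1 and 0.01), filters (none and 5 FPKM), thresholds (1.5-fold and 4-fold) and library scalings (median and TMM, trimming 30% of log ratios and 5% of mean values per side).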

Additional observations from a re-analysis of the deposited data

How the results depend on the processing

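Differences between these 2 libraries have no replicate check, so none can be assigned to the MEIS2 genotype rather than to the culture. No paired analysis was possible because each genotype has 1 library. Depth is unknown, which limits NOTCH4 and DLL4 most. The calls on the 8 compared Notch genes were the same under both pseudocounts, the filters, the 1.5-fold threshold and both scalings. Over the pseudocounts, filters and scalings, DLL3 ranged from -2.32 to -2.09, JAG2 from -1.63 to -1.31, NOTCH1 from -1.34 to -1.16 and DLL1 from 1.36 to 1.52. At a 4-fold threshold 1 Notch gene, DLL3, was lower and 0 were higher, as were 1 (EGFL7) and 0 of the other pathway genes. Of all genes compared, 1.84% were lower and 1.48% higher at that threshold. The median of the Notch genes (-0.16) became -0.28 with median rescaling and -0.27 with TMM, since the scalings lower all values by 0.12 and 0.10. The median of the other pathway genes (-0.01) became -0.13 and -0.12 with these scalings, -0.03 without a filter and, with the sign turned, 0.02 with the 5 FPKM filter. The 5 lower genes among them became 3 with a pseudocount of 1 or the 5 FPKM filter, without DLK2 and DTX1, and 10 at 1.5-fold. The lower shares of all genes there were 5.3%, 6.41% and 14.5%. With either scaling the 5 became 7, beside 9.2% (median) and 9.06% (TMM) of all genes. The 4 higher genes became 3 with that pseudocount or filter, without APH1B, beside 4.76% and 5.94% of all genes. They became 5 at 1.5-fold or without a filter, beside 18% and 9.01%. These moves follow from how each setting is built.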
